A study of Homo sapiens with 45 samples.

Results

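The genes described here are 9 regulators of programmed cell death, PMAIP1, BBC3, HRK, BCL2L11, MCL1, BCL2L1, BAX, BAK1 and TNFRSF10B, chosen by symbol from the 60676 genes of the deposited count table. Each symbol matched 1 row, and all 9 genes were among the 11078 that passed the filter on low counts and were tested. The cells were HAP1, a near-haploid human leukaemia-derived line. AAVS1 cells are taken here as the reference. The other genotypes were ZNF598 KO, eS31 K113R (a substitution in a protein of the small ribosomal subunit), RNF25 KO, GCN2 KO and, with both of the last pair lost, RNF25 GCN2 DKO, where KO and DKO stand for single and double knockout. Cells of each genotype were left untreated or given 5 uM azacytidine (azaC), a nucleoside analogue, for 4 h, and 3 genotypes (AAVS1, RNF25 KO, GCN2 KO) were also given 25 nM halofuginone (HF), which blocks the charging of proline tRNA, for 4 h. This made 15 groups of 3 libraries each, 45 libraries in all. The design allows drug responses to be compared between the labelled lines, with azaC in all 6 and with HF in 3. An effect of genotype cannot be told apart from one of line or clone. The labels number the 3 libraries of a group as biological replicates. They do not state the number of clones behind a line or how the replicate cultures were kept apart, and the p-values measure the spread between these libraries.

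The BCL2 family decides whether the outer mitochondrial membrane is opened. The effectors BAX and BAK1 form the pores, the guardians MCL1 and BCL2L1 (BCL-XL) hold them in check, and BH3-only proteins such as PMAIP1 (NOXA), BBC3 (PUMA), HRK (Harakiri) and BCL2L11 (BIM) bind the guardians or the effectors and push the balance towards death. NOXA binds MCL1 with high preference and Harakiri binds BCL-XL. TNFRSF10B (DR5) is a surface receptor for the ligand TRAIL that starts the separate, receptor-driven route. The integrated stress response, in which GCN2 and related kinases lead to translation of the transcription factor ATF4, is known to raise transcription of several of these genes.

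Total counts per library ranged from 1135498 to 2478875 (median 1541554), and the mitochondrial share from 3.14 to 8.73% (median 7.08%). EIF2AK4, the gene of GCN2, lay at 14.1 to 47.8 CPM (counts scaled to library size; median 22.4) in the 15 libraries labelled as lacking GCN2 and at 28.8 to 64.8 (median 44.9) in the other 30. ZNF598 lay at 30.5 to 47.5 CPM in its 6 knockout libraries and at 55.9 to 125.2 in the other 39, and RNF25 was too low to check (0 to 2.49 against 0 to 4.96 CPM). These levels do not measure protein. 2 libraries stood apart: the correlation of a library with the mean of the other 2 of its group was lowest for AAVS1 untreated replicate 2 (Pearson r = 0.91 across genes) and next lowest for RNF25 KO azaC replicate 2 (r = 0.941), against a median of 0.96 over the 45 libraries. On this measure the latter was only slightly below AAVS1 untreated replicate 3 (0.944) and RNF25 KO azaC replicate 1 (0.945). AAVS1 untreated replicate 1 (0.950) followed, so the whole untreated AAVS1 group was among the lowest. RNF25 KO azaC replicate 2 also had the highest total and the lowest mitochondrial share. For 2 of the 3 untreated eS31 K113R libraries, replicates 2 and 3, the title and the genotype label name another ribosomal protein and another substitution, and they were placed by the count table column named in their description. Of 12 haematopoietic marker genes, 5 (CD33, MPO, ITGAM, GATA1 and HBG1) had no count in any library, and that list, led by TAL1, summed to 15.9 to 40.3 CPM per group. The epithelial list, led by KRT18, summed to 30.5 to 68.2 CPM per group, and the fibroblast and mesenchymal list, led by VIM, to 307 to 589 CPM. Each of these sums came largely from its leading gene. TAL1 had 1745 counts over all libraries, KRT18 3129 and VIM 29788. The next highest genes of these lists had 7 (CD34 and LYZ), 145 (KRT8) and 737 (COL1A1). In bulk RNA, fewer cells that express a gene and less RNA of it per cell cannot be told apart.

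PMAIP1 and HRK were the members that rose with both drugs, and the sequences just upstream of their start sites are shown for that reason, from RefSeq (GRCh38.p14). PMAIP1 (ENSG00000141682) is annotated at chr18:59899948-59904306 on the plus strand, and HRK (ENSG00000135116) at chr12:116856144-116881441 on the minus strand. The PMAIP1 stretch is the 202 bases at chr18:59899746-59899947 (plus strand), and the HRK stretch the 250 bases at chr12:116881442-116881691 (minus strand), both 5′ to 3′. The PMAIP1 stretch stops at the annotated gene start, 48 bases before the RefSeq start. Capitals mark TGATGTAA, a match to TGATGNAA, the core that C/EBP and ATF factors share, and CGTCA, which is TGACG read on the opposite strand.
PMAIP1: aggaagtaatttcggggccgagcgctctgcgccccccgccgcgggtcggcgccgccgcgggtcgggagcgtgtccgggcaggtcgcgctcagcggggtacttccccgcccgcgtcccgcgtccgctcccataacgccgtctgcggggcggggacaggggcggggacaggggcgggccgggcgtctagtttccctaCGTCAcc
HRK: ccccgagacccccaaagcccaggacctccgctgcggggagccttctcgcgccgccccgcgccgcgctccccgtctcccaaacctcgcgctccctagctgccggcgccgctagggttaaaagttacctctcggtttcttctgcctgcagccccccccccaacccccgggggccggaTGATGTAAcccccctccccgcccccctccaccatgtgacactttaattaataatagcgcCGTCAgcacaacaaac
In the 250 bases before each RefSeq start, searched on both strands for the 7 members with an entry (all but MCL1 and TNFRSF10B), TGATGNAA was found once, in HRK, 75 bases upstream. It occurs in 3.14% of 35116 such windows. The full cAMP response element TGACGTCA (1.65% of windows) was found in none of the 7. Its first 5 letters, TGACG, a motif added after the windows had been seen and part of every TGACGTCA, were found in PMAIP1 (55 bases upstream), HRK (16 bases), BCL2L1 and BAX, and occur in 21.2% of windows. A match is a description of these letters only.

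With azaC, members rose in the 4 genotypes that carry GCN2, and PMAIP1 and HRK accounted for every call. By edgeR's quasi-likelihood test with Benjamini-Hochberg adjustment over all 11078 genes, and a call at an adjusted p under 0.05, 1 of 9 members was called in AAVS1 (0.117% of all genes tested were called there), 1 of 9 in ZNF598 KO (0.117%), 2 of 9 in RNF25 KO (0.451%) and 2 of 9 in eS31 K113R (0.515%). In GCN2 KO and RNF25 GCN2 DKO azaC called 0 of 9 members and 0 of all genes (0%). At an unadjusted p under 0.05, 402 and 275 genes lay below the threshold there, and DESeq2 and limma-voom also called 0. Both counts are below a share of 0.05 of the 11078 genes. So are those of AAVS1 (516) and ZNF598 KO (316) with azaC, where 13 genes each were called. This count therefore does not separate lines with calls from lines without. With HF, 2 of 9 members were called in AAVS1 (1.55% of all genes), 2 in RNF25 KO (1.77%) and 2 in GCN2 KO (1.07%): PMAIP1 and HRK in the first pair of genotypes, PMAIP1 and MCL1 in GCN2 KO. The median log2 fold change of the 9 members was 0.24, 0.20, 0.15 and 0.07 with azaC in AAVS1, ZNF598 KO, RNF25 KO and eS31 K113R, and 0.49, 0.56 and 0.45 with HF in AAVS1, RNF25 KO and GCN2 KO, where the medians of all genes lay between -0.013 and 0.012. With azaC in GCN2 KO and RNF25 GCN2 DKO the members' median was -0.0035 and -0.029. Each median is the value of the middle gene of the 9. With HF that gene was TNFRSF10B in all 3 genotypes, with an SE of 0.57 to 0.58, and it passed no test. All 6 azaC comparisons are against the untreated cells of the same genotype, which the HF comparisons share.

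**Figure D1:**
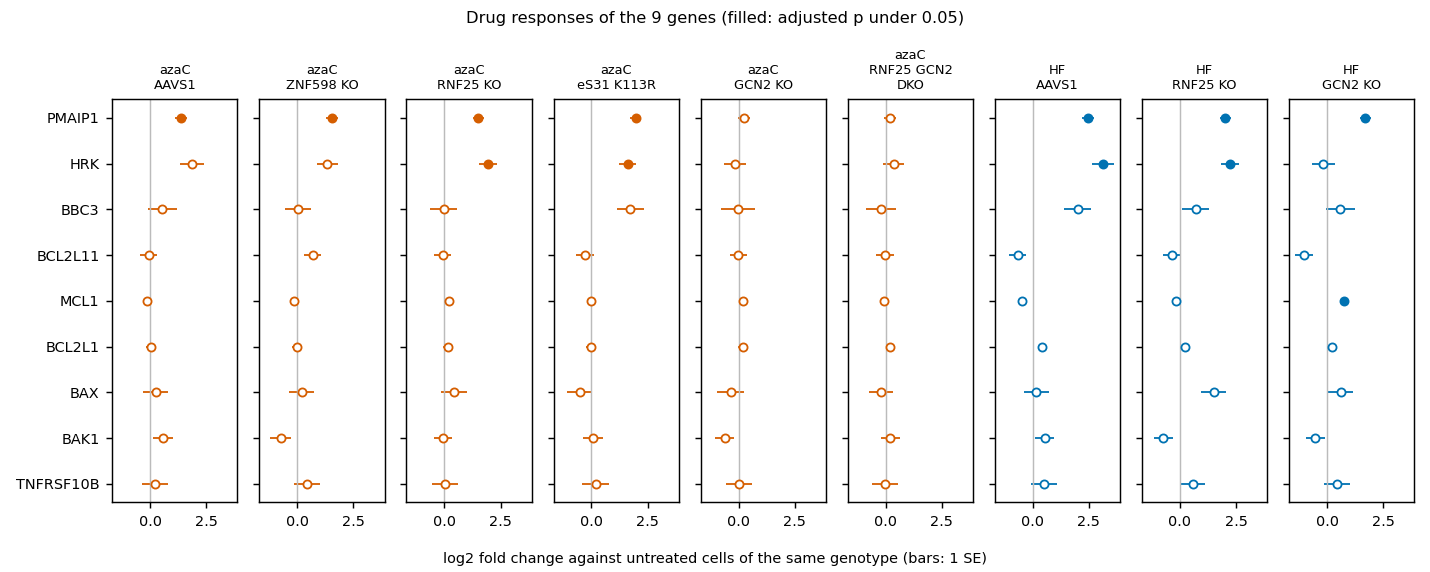
Log2 fold change (x axis, bars 1 SE of the fit, 3 libraries a group) of the 9 genes (y axis) with azaC in 6 genotypes and with HF in 3. Filled points passed an adjusted p of 0.05: PMAIP1 in 7 panels, HRK in 4 and MCL1 in 1.

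PMAIP1, which encodes NOXA, had 18.1, 44.4 and 19.3 CPM in AAVS1 without drug and 72.7, 85.7 and 58.7 CPM with azaC. The treated libraries all lay above the untreated ones, although untreated replicate 2, one of the libraries that stand apart, was well above the other pair. The fold change was 2.57 (95% interval 1.78 to 3.73, adjusted p = 0.00398 by edgeR). Without AAVS1 untreated replicate 1 or 3 or AAVS1 azaC replicate 2, the adjusted p was 0.116, 0.0653 or 0.0846, and with only the AAVS1 untreated and azaC libraries in the fit it was 1.00 at a log2 change of 1.40. In ZNF598 KO, PMAIP1 was at 33.2, 31.6 and 29.1 CPM untreated and at 87.8, 109.7 and 79.6 CPM with azaC, 2.95-fold higher (interval 2.05 to 4.25, adjusted p = 3.17e-04 by edgeR). In RNF25 KO it was at 34.6, 56.6 and 34.3 CPM untreated and 139.4, 103.9 and 120.1 CPM with azaC, 2.87-fold higher (interval 2.01 to 4.09, adjusted p = 1.35e-04 by edgeR). In eS31 K113R it went from 24.5, 54.8 and 59.1 CPM to 142.9, 190.3 and 208.8 CPM, 3.90-fold higher (interval 2.74 to 5.56, adjusted p = 4.17e-07 by edgeR). Treated and untreated libraries did not overlap in any of these 4 genotypes. The share of all genes with such a lack of overlap was not counted. Here and for the other members it is therefore a description and not a test.

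In the lines without GCN2, PMAIP1 stayed within or near its untreated range under azaC. GCN2 KO libraries were at 42.1, 30.9 and 35.0 CPM untreated and at 45.7, 38.9 and 43.0 CPM with azaC (fold 1.17, interval 0.802 to 1.72). RNF25 GCN2 DKO libraries were at 28.0, 31.7 and 39.4 CPM untreated and at 28.8, 46.4 and 39.2 CPM with azaC (fold 1.16, interval 0.790 to 1.69). The libraries of the compared groups overlapped in both lines, and the intervals leave room for a rise of up to 1.72-fold. The mean azaC response of the 4 lines that carry GCN2 was 1.60 ± 0.13 on the log2 scale (SE; adjusted p = 1.09e-13 by edgeR; 1.07% of all genes were called in this average), and it exceeded the mean response of GCN2 KO and DKO by 1.38 ± 0.23 (adjusted p = 2.28e-04 by edgeR), where 0.208% of all genes were called. PMAIP1 was the 1 member of 9 called in the latter comparison, and PMAIP1 and HRK were the 2 of 9 called in the former.

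HF raised PMAIP1 in all 3 genotypes given it, GCN2 KO included. AAVS1 libraries with HF were at 139.7, 174.3 and 147.9 CPM (5.46-fold, interval 3.78 to 7.88, adjusted p = 1.46e-09 by edgeR). RNF25 KO libraries with HF were at 159.0, 201.7 and 152.1 CPM (4.06-fold, interval 2.85 to 5.79, adjusted p = 1.26e-07 by edgeR). GCN2 KO libraries with HF lay close together at 115.5, 120.4 and 118.4 CPM (3.26-fold, interval 2.26 to 4.70, adjusted p = 3.23e-05 by edgeR), above all 6 untreated and azaC libraries of that line. The PMAIP1 response to HF differed from that of AAVS1 by -0.74 ± 0.36 on the log2 scale in GCN2 KO (adjusted p = 0.694 by edgeR) and by -0.43 ± 0.36 in RNF25 KO (adjusted p = 1.00), so neither difference passed. The interval of the GCN2 KO difference ran from 0.357- to 0.998-fold.

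**Figure D2:**
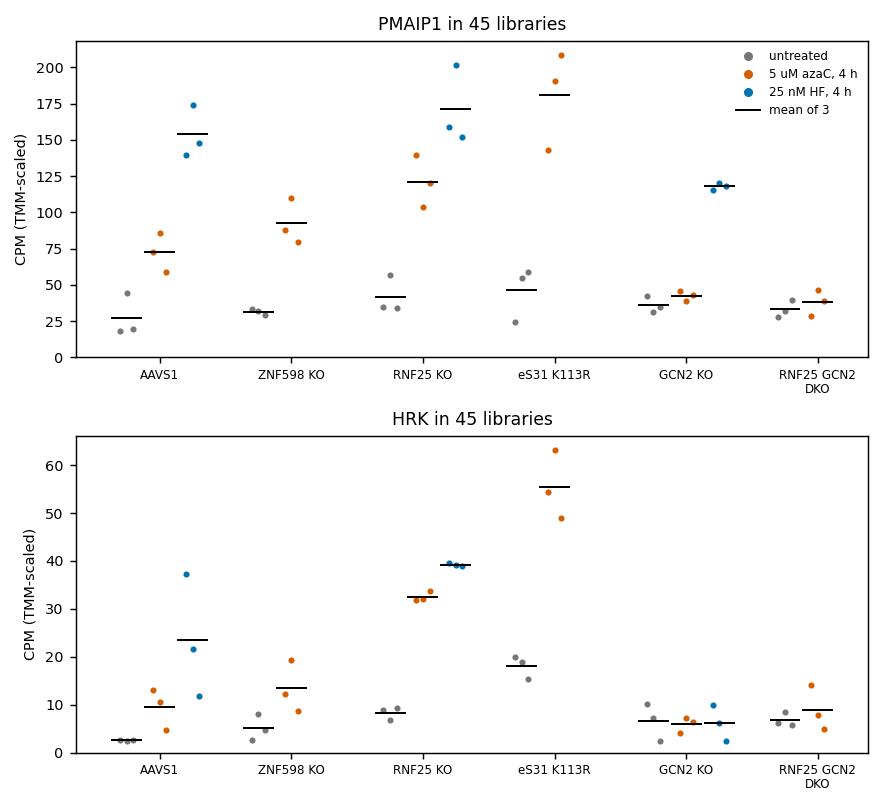
CPM (y axis, linear, on TMM-scaled library sizes) of PMAIP1 and HRK in each of the 45 libraries by genotype (x axis), with points for libraries, colours for treatment and bars for the mean of 3. PMAIP1 in GCN2 KO is near its untreated level with azaC (mean 42.6 CPM) and at 118.1 CPM with HF, while HRK in GCN2 KO stays between 2.33 and 10.2 CPM throughout.

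Set side by side within a genotype, PMAIP1 was lower with azaC than with HF, by a log2 difference of -1.08 ± 0.24 in AAVS1 (adjusted p = 0.00887 by edgeR) and -1.47 ± 0.25 in GCN2 KO (adjusted p = 3.41e-04 by edgeR). It was the 1 member of 9 called in each of these 2 comparisons, in which 0.957% and 1.03% of all genes were called. In AAVS1 that call did not hold without azaC replicate 3 (adjusted p = 0.0967) or without HF replicate 2 (0.0850). HRK in AAVS1 differed by -1.27 (adjusted p = 0.139 by edgeR), and it passed with a block for the replicate number (-1.26, adjusted p = 0.0448) and without HF replicate 3. MCL1 in GCN2 KO differed by -0.56 (adjusted p = 0.0699 by edgeR), and with that block its adjusted p was 0.0130, so the members called in these comparisons went from 2 to 4. In RNF25 KO the difference was -0.50 ± 0.23 (adjusted p = 0.321 by edgeR), and 0 of 9 members and 0.83% of all genes were called. The 2 drugs were each given at 1 dose, so these values do not rank them.

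Over the 15 groups PMAIP1 was highest in eS31 K113R with azaC (180.7 ± 34.0 CPM, SD, n = 3) and lowest in untreated AAVS1 (27.2 ± 14.9), a 6.63-fold range. Of the 14 neighbouring pairs in that order, 2 had libraries that did not overlap: AAVS1 HF above RNF25 KO azaC, and GCN2 KO HF above ZNF598 KO azaC. The 6 untreated groups and both azaC groups without GCN2 formed the lower 8 places, with means of 27.2 to 46.1 CPM.

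HRK, whose product Harakiri binds BCL-XL, had few reads, 3 to 109 per library, and the widest range of the 9 genes, 21.8-fold between group means. In AAVS1 without drug it was at 2.58, 2.49 and 2.57 CPM, which is 3, 5 and 4 reads. With HF the AAVS1 libraries were at 37.2, 21.6 and 11.8 CPM (8.83-fold, interval 4.4 to 17.7, adjusted p = 1.91e-05 by edgeR). All treated libraries lay above the untreated ones and differed widely among themselves. RNF25 KO went from 8.86, 6.84 and 9.35 CPM to 39.5, 39.1 and 39.0 CPM with HF (4.67-fold, interval 2.63 to 8.29, adjusted p = 3.82e-04 by edgeR) and to 31.9, 32.1 and 33.7 CPM with azaC (3.88-fold, interval 2.18 to 6.90, adjusted p = 0.00573 by edgeR). Without RNF25 KO untreated replicate 2 the azaC call had an adjusted p of 0.0767.

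eS31 K113R had the highest HRK level of the untreated groups and, with azaC, of all groups. Its untreated libraries were at 19.9, 18.9 and 15.3 CPM, above all other untreated libraries, and 6.91-fold above AAVS1 (interval 3.4 to 14.1, adjusted p = 1.89e-04 by edgeR). This was the 1 call among the 9 members in untreated eS31 K113R, where 2.89% of all genes were called. With untreated replicate 1 alone the log2 difference of HRK was 2.93 (adjusted p = 0.00873 by edgeR), against 2.79 with all 3, while the calls over all genes went from 320 to 100. With azaC the libraries reached 54.4, 63.1 and 48.9 CPM, 3.06-fold above untreated eS31 K113R (interval 1.81 to 5.19, adjusted p = 0.0188 by edgeR). That azaC call did not hold without any 1 of the untreated eS31 K113R replicates 1, 2 and 3 (adjusted p = 0.0818, 0.0906 and 0.150) or without eS31 K113R azaC replicate 2 (0.132). With untreated replicate 1 alone, the one whose title names this line, the log2 change was 1.47 (adjusted p = 0.576).

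In AAVS1 and ZNF598 KO the azaC libraries also lay above the untreated ones without passing the test. HRK was at 13.1, 10.6 and 4.78 CPM in AAVS1 with azaC (log2 fold change 1.87 ± 0.53, adjusted p = 0.519 by edgeR). In ZNF598 KO it was at 2.66, 8.05 and 4.77 CPM untreated and 12.2, 19.3 and 8.61 CPM with azaC (1.35 ± 0.45, adjusted p = 1.00 by edgeR). Averaged over the 4 lines that carry GCN2, HRK rose by 1.70 ± 0.22 (adjusted p = 3.40e-07 by edgeR). That average exceeded the one of GCN2 KO and DKO by 1.59 ± 0.41, which did not pass (adjusted p = 0.128 by edgeR). It passed without GCN2 KO untreated replicate 3 (adjusted p = 0.0318) or without RNF25 GCN2 DKO azaC replicate 1 (0.0455).

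With HF in GCN2 KO, where PMAIP1 rose, HRK did not pass the test. Its GCN2 KO libraries were at 10.2, 7.28 and 2.33 CPM untreated, 4.16, 7.23 and 6.33 CPM with azaC and 9.92, 6.14 and 2.49 CPM with HF (fold with HF 0.897, interval 0.444 to 1.81). The 9 libraries overlapped, and they held 3 to 14 reads each. HRK responded less to HF in GCN2 KO than in AAVS1 (log2 difference -3.30 ± 0.72, adjusted p = 0.0114 by edgeR). Without GCN2 KO untreated replicate 1, AAVS1 HF replicate 1 or GCN2 KO HF replicate 3, that adjusted p was 0.209, 0.0796 or 0.0601, by limma-voom it was 0.145, and with only the compared groups in the fit 0.20. The mean response of AAVS1 and RNF25 KO exceeded that of GCN2 KO by 2.84 ± 0.61 (adjusted p = 0.00768 by edgeR), with 0.233 and 0.0598 when the same 2 GCN2 KO libraries were left out and 0.0667 by limma-voom. RNF25 GCN2 DKO, which received no HF, was at 6.15, 8.53 and 5.71 CPM untreated and 14, 7.74 and 4.90 CPM with azaC.

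MCL1 (chr1:150574551-150579738), the guardian that NOXA binds, was the most abundant member, at 43.1 CPM per kilobase of exon on average against 36.0 for PMAIP1, 17.2 for BCL2L1 and 11 for TNFRSF10B. The other 5 members lay between 1.85 (BCL2L11) and 7.58 (BAK1). MCL1 was close to level across most groups and rose with HF in GCN2 KO. There it was at 189.6, 157.4 and 229.6 CPM untreated and at 367.8, 332.2 and 289.5 CPM with HF (1.71-fold, interval 1.36 to 2.16, adjusted p = 0.00513 by edgeR). The HF libraries of GCN2 KO lay above all other libraries. Without GCN2 KO untreated replicate 2 or GCN2 KO HF replicate 1 the adjusted p was 0.0902 or 0.0706.

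The change of MCL1 with HF had the opposite sign in AAVS1. Those libraries were at 216.0, 183.1 and 190.7 CPM untreated and at 147.4, 148.3 and 128.9 CPM with HF, without overlap, a log2 change of -0.47 ± 0.16 (adjusted p = 0.162 by edgeR, and 0.0494 with the replicate number as a block). RNF25 KO was at 161.9, 148.0 and 168.3 CPM untreated and 184.9, 118.5 and 122.9 CPM with HF, with overlap (-0.16 ± 0.16). The HF response of MCL1 was higher in GCN2 KO than in AAVS1 by 1.25 ± 0.23 on the log2 scale (adjusted p = 0.00121 by edgeR), and the mean of AAVS1 and RNF25 KO minus GCN2 KO was -1.09 ± 0.20 (adjusted p = 7.42e-04 by edgeR). These were, beside HRK, the only members called, so 2 of 9 passed in each, where 0.334% and 0.533% of all genes were called. With azaC the MCL1 change was between -0.16 and 0.21 in the 6 genotypes and passed in none.

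**Figure D3:**
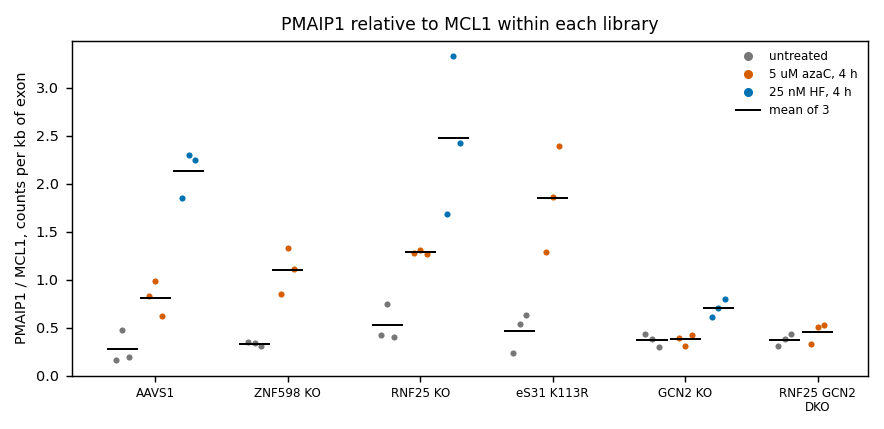
Ratio of PMAIP1 to MCL1 counts, each per kilobase of annotated exon (y axis, linear), in each library by genotype (x axis), with points for libraries, colours for treatment and bars for the mean of 3. The ratio is above 1 in all HF libraries of AAVS1 and RNF25 KO and below 1 in all libraries of GCN2 KO and RNF25 GCN2 DKO. It is also below 1 in every untreated library, in all azaC libraries of AAVS1 and in ZNF598 KO azaC replicate 1 (0.852). RNF25 GCN2 DKO received no HF.

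The ratio of PMAIP1 to MCL1 counts, each per kilobase of annotated exon, within a library combines both changes. Whether it lies above or below 1 depends on that scaling by length. It was 0.164, 0.474 and 0.198 in untreated AAVS1, 0.825, 0.981 and 0.618 with azaC and 1.85, 2.30 and 2.24 with HF. In RNF25 KO the mean was 0.522 ± 0.196 (SD, n = 3) untreated, 1.29 ± 0.021 with azaC and 2.48 ± 0.83 with HF, and in eS31 K113R 0.468 ± 0.210 untreated and 1.85 ± 0.56 with azaC. In GCN2 KO it was 0.435, 0.384 and 0.298 untreated, 0.396, 0.312 and 0.422 with azaC and 0.614, 0.709 and 0.80 with HF. The HF libraries of GCN2 KO thus reached ratios like those of AAVS1 with azaC, at a higher level of both transcripts. The ratios are a description and were not tested.

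BCL2L1, the guardian that Harakiri binds, varied least, 1.47-fold between group means. Group means ran from 46.7 ± 8.9 CPM (SD, n = 3) in untreated AAVS1 to 68.5 ± 8.2 CPM in GCN2 KO with HF. In AAVS1 it was at 47.3, 37.4 and 55.2 CPM untreated, 53.8, 48.9 and 40.3 CPM with azaC and 72.2, 48.8 and 66.8 CPM with HF, with overlap in each case. The response to azaC was between -0.03 and 0.21 and that to HF between 0.21 and 0.43 on the log2 scale, with adjusted p of 0.461 or more by edgeR. An antisense gene, ABALON, covers 43% of its annotated exon bases at chr20:31664452-31723989, and the strand setting of the counting is not given in the sources used here, so reads of the pair cannot be told apart. The ratio of HRK to BCL2L1 per kilobase was 0.0270 ± 0.0049 in untreated AAVS1 and highest in eS31 K113R with azaC (0.426 ± 0.090), and in GCN2 KO it was 0.0583 ± 0.0421 untreated, 0.0423 ± 0.0064 with azaC and 0.0424 ± 0.0218 with HF.

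BBC3 (chr19:47220822-47232766), whose product PUMA binds the guardians broadly, had 1 to 29 reads per library. Its highest group was AAVS1 with HF, at 21.0, 6.97 and 14.9 CPM against 2.58, 4.99 and 2.57 CPM untreated. These libraries did not overlap, and the fold was 3.98 (interval 1.71 to 9.29, adjusted p = 0.0824 by edgeR, and 0.0410 with the replicate number as a block). eS31 K113R was at 2.29, 4.26 and 3.84 CPM untreated and 8.12, 8.10 and 19.2 CPM with azaC, again without overlap (log2 fold change 1.73 ± 0.61, adjusted p = 0.484 by edgeR). In the other 7 drug comparisons its log2 change was between -0.21 and 0.70 and the libraries overlapped. In GCN2 KO with HF it was at 7.80, 6.14 and 4.97 CPM against 0.727, 8.19 and 3.89 CPM untreated. At this depth no change of BBC3 passed the test.

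BCL2L11 (chr2:111119378-111168447), which encodes BIM, had 8 to 47 reads per library and passed no test. With HF its level was lower in each genotype. In GCN2 KO it was at 14.5, 18.2 and 8.56 CPM untreated and 7.80, 4.91 and 7.46 CPM with HF, without overlap (log2 fold change -1.02 ± 0.41, adjusted p = 0.322 by edgeR). In RNF25 KO it was at 12.9, 13.7 and 18.1 CPM untreated and 11.8, 12.0 and 11.1 CPM with HF, also without overlap (-0.36 ± 0.38), and in AAVS1 at 12.1, 19.0 and 18.0 against 6.98, 15.2 and 8.73 CPM (-0.67 ± 0.38). With azaC the log2 change ran from -0.28 to 0.69. Of its exon bases, 10.9% are shared with MIR4435-2HG on the opposite strand, to which the limit given for BCL2L1 applies.

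The effectors passed no test either. BAX (chr19:48954815-48961798) had 2 to 36 reads per library and group means of 4.71 to 14.8 CPM. Its highest group was RNF25 KO with HF, at 21.2, 5.67 and 17.5 CPM against 5.64, 2.49 and 7.48 CPM untreated (log2 fold change 1.5 ± 0.55, adjusted p = 0.20 by edgeR), where replicate 2 lay within the untreated range. BAK1 (chr6:33572547-33580293) had 6 to 68 reads and group means of 9.46 to 23.4 CPM. It was lower with azaC without overlap in ZNF598 KO (19.9, 14.9 and 12.7 CPM untreated, 10.1, 8.97 and 9.32 CPM with azaC; -0.73 ± 0.45) and in GCN2 KO (24.7, 18.2 and 27.2 CPM untreated, 14.6, 16.7 and 14.6 CPM with azaC; -0.62 ± 0.42). In AAVS1 the azaC libraries were at 26.9, 8.57 and 23.9 CPM against 5.16, 16.5 and 16.1 CPM untreated, with overlap (0.58 ± 0.43). The sign of the estimate differed between lines, but no difference between their responses passed the test. No adjusted p of BAK1 by edgeR was under 0.567 in the 9 drug comparisons.

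**Figure D4:**
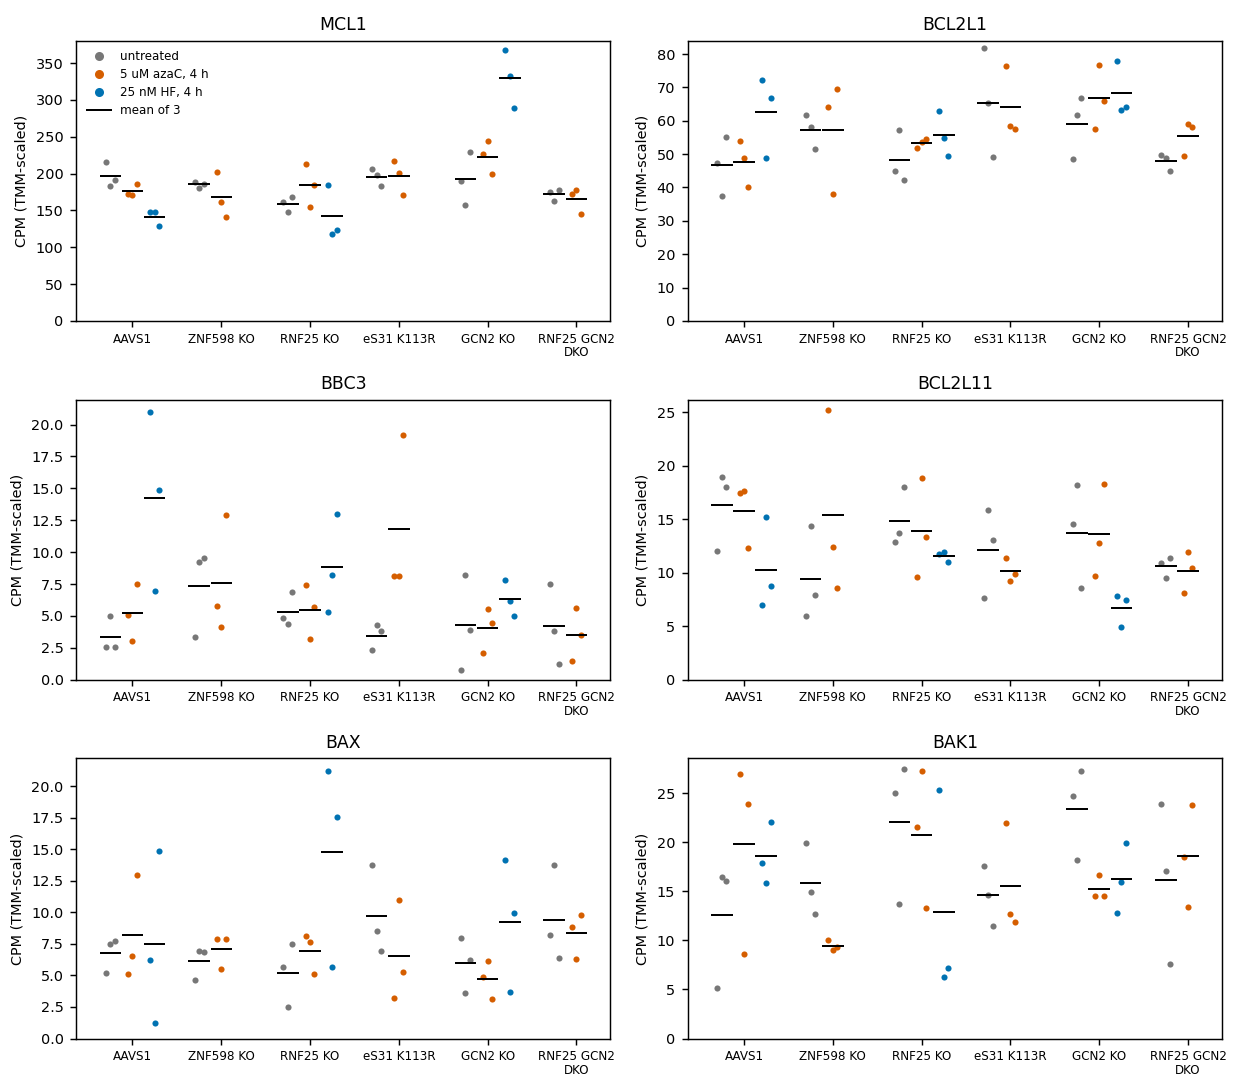
CPM (y axes, linear, different scales) of MCL1, BCL2L1, BBC3, BCL2L11, BAX and BAK1 in each library by genotype (x axis), with points for libraries, colours for treatment and bars for the mean of 3. The HF libraries of GCN2 KO stand above all others for MCL1 (289.5 to 367.8 CPM), and the other 5 genes passed the test in none of the 9 drug comparisons.

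TNFRSF10B (chr8:23020133-23069179), the TRAIL receptor, differed more by replicate number than by treatment. Replicate 3 was the highest of the 3 libraries in 14 of 15 groups (all but GCN2 KO with azaC), with means of 40.4, 41.9 and 88.3 CPM for replicates 1, 2 and 3, and 2.15-fold above the mean of the other 2. For no other member did 1 replicate number hold the highest library in more than 9 of the 15 groups. AAVS1 was at 36.1, 34.4 and 70.0 CPM untreated, 45.1, 40.9 and 77.1 CPM with azaC and 44.2, 38.0 and 112.98 CPM with HF. RNF25 KO was at 45.1, 27.4 and 96.0 CPM untreated and 60.1, 58.0 and 132.6 CPM with HF, and GCN2 KO at 41.4, 29.1 and 76.3 CPM untreated and 51.0, 51.6 and 97.5 CPM with HF. Within each replicate number the HF library was above the untreated one in all 3 genotypes. The log2 change with HF was 0.49 ± 0.58, 0.56 ± 0.57 and 0.45 ± 0.58 in AAVS1, RNF25 KO and GCN2 KO (adjusted p = 0.825, 0.826 and 0.90 by edgeR), with standard errors set by the spread between replicate numbers. With the replicate number as a block it was 0.42, 0.61 and 0.46 (adjusted p = 0.412, 0.135 and 0.401). With azaC the log2 change was between -0.03 and 0.45.

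**Figure D5:**
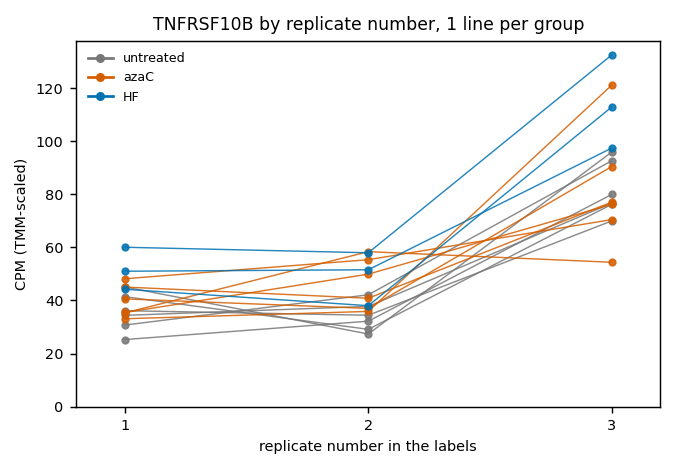
CPM (y axis, linear) of TNFRSF10B by the replicate number of the labels (x axis), with 1 line joining the 3 libraries of each of the 15 groups and colours for treatment. Replicate 3 is highest in 14 of 15 groups (mean 88.3 CPM, against 40.4 and 41.9).

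Among untreated cells, HRK in eS31 K113R was the 1 member difference from AAVS1 that passed the test. Against untreated AAVS1, 0 of 9 members were called in RNF25 KO (1.61% of all genes), GCN2 KO (1.11%), RNF25 GCN2 DKO (1.39%) and ZNF598 KO (0.921%). HRK was higher than AAVS1 in each of them (log2 difference 1.02 to 1.68, adjusted p of 0.132 or more by edgeR). PMAIP1 was 0.58 ± 0.27 higher in RNF25 KO and 0.72 ± 0.27 higher in eS31 K113R (adjusted p = 0.474 and 0.201 by edgeR), and without AAVS1 untreated replicate 2 these were 1.16 and 1.30 (adjusted p = 0.0277 and 0.00522). The eS31 K113R difference also passed without eS31 K113R untreated replicate 1 (1.01, adjusted p = 0.0279). The AAVS1 libraries are shared by all 5 of these comparisons.

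Differences between genotypes in the response to azaC were called for 0 of 9 members in each of 8 comparisons. Minus the response of AAVS1, the percentages of all genes called were 0% for RNF25 KO, 0.00903% for GCN2 KO, 0.0451% for RNF25 GCN2 DKO, 0% for ZNF598 KO and 0.00903% for eS31 K113R. They were 0.117% for RNF25 GCN2 DKO minus RNF25 KO, 0% for eS31 K113R minus RNF25 KO and 0% for RNF25 KO minus ZNF598 KO. The PMAIP1 response differed by -1.31 ± 0.37 on the log2 scale between RNF25 GCN2 DKO and RNF25 KO (adjusted p = 0.361 by edgeR) and by -1.13 ± 0.38 between GCN2 KO and AAVS1 (adjusted p = 1.00). For HF, RNF25 KO minus AAVS1 called 0 of 9 members and 0% of all genes. In the 5 comparisons with no gene called, 291 (RNF25 KO minus AAVS1), 329, 473, 599 and 280 (HF) genes had an unadjusted p under 0.05, in the order given, and DESeq2 and limma-voom also called 0. Of these counts, 599 is slightly above a share of 0.05 of the 11078 genes tested, and the others are below it.

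The other genes of the pathway were followed in a list of 57, of which 41 were tested. Of its upstream transcription factors, DDIT3 (CHOP), a target of ATF4 that raises death genes, moved with PMAIP1. DDIT3 was at 18.5 ± 6.6 CPM (SD, n = 3) in untreated AAVS1, 63.5 ± 7.6 with azaC and 187.7 ± 40.1 with HF, and at 18.7 ± 6.6, 20.5 ± 6.9 and 58.5 ± 4.4 CPM in GCN2 KO. It was called higher with azaC in the 4 lines that carry GCN2 and with HF in all 3 genotypes. ATF3, a stress-induced factor of the same family as ATF4, was called in the same comparisons except HF in GCN2 KO, and ATF4, of the single genotypes, in RNF25 KO with azaC (log2 fold change 0.90 ± 0.19, adjusted p = 0.00686 by edgeR). Over the list 2, 2, 3 and 2 of 41 genes were called with azaC in AAVS1, ZNF598 KO, RNF25 KO and eS31 K113R, 0 in GCN2 KO and RNF25 GCN2 DKO, and 2, 2 and 1 with HF in AAVS1, RNF25 KO and GCN2 KO, all higher and all upstream factors. In the average of the 4 lines FOXO3, which can induce BIM and PUMA, was called as well (0.46 ± 0.10, adjusted p = 0.00728 by edgeR).

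The remaining tested genes of the list were called in no drug comparison. They hold 6 further BH3-only and related genes (BID, BAD, BIK, BMF, BNIP3 and BNIP3L), the guardians BCL2 and BCL2L2, all 7 caspase and apoptosome genes and 5 receptors including FAS and the decoy TNFRSF10D. None of the 3 ligands, TNFSF10 (TRAIL), FASLG and TNF, had enough reads to be tested, and TNFRSF10A (DR4) and CASP8 were not tested either. In untreated eS31 K113R, 3 genes of the list were lower than in AAVS1: XIAP, a caspase inhibitor (log2 difference -1.5 ± 0.33, adjusted p = 0.00305 by edgeR), USP9X (-0.77 ± 0.15, adjusted p = 8.60e-04) and HUWE1 (-0.61 ± 0.17, adjusted p = 0.0327), the last pair being the deubiquitinase and a ubiquitin ligase of MCL1. All 3 lie on the X chromosome, where 145 of 403 tested genes (36%) were called lower in that line, with a median log2 difference of -0.87, against 42 of 10667 elsewhere (0.394%, median 0.03). With untreated eS31 K113R replicate 1 alone, 39 of 436 tested X-linked genes (8.94%) were called lower, with a median of -0.92, against 10 of 11652 elsewhere (0.0858%). USP9X still passed in that fit (-0.95, adjusted p = 0.0287 by edgeR), while XIAP was at -1.44 (0.245) and HUWE1 at -0.60 (0.394). MCL1 itself was at a mean of 195.9 CPM there against 196.6 CPM in AAVS1 (fold interval 0.792 to 1.26).

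Over the 15 group means of log2 CPM, the genes whose pattern was most like that of PMAIP1 were DDIT3 (Pearson r = 0.96), SLC3A2 (0.95) and CEBPB (0.95). For HRK they were PHGDH (0.96), RGMB (0.93) and SHMT2 (0.92), and for MCL1 MAPK1IP1L (0.88), MIDN (0.88) and AC008560.1 (0.86). Among the members, PMAIP1 correlated with BBC3 (0.81), HRK (0.80) and TNFRSF10B (0.79) and with MCL1 at -0.07. These are descriptions over 15 groups that share treatments and untreated cells, and the genes named first are the highest of 11078.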

How the data were processed

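PolyA RNA was sequenced, and the authors deposited raw counts per gene for 45 libraries. The submitters' processing notes name STAR 2.7.10b, HTSeq 0.9.1 and the build GRCh38. Whether counting used strand or molecular identifiers, and which annotation release, is not given in the sources used here, so PCR copies may be counted as reads. Rows without a symbol (2862, 0.0286% of counts) carried an identifier and stayed in. All 45 columns were used.

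In R 4.3.3, edgeR 4.0.16 filtered genes (minimum count 10), scaled libraries by TMM and fitted 1 robust quasi-likelihood model to all 15 groups, with 30 contrasts and Benjamini-Hochberg adjustment within each. CPM are on TMM-scaled sizes, and log2 CPM used a prior count of 2. SE is the log2 fold change over the root of F, and 95% intervals use t on 30 degrees of freedom. Alternatives were DESeq2 1.42.0, limma 3.58.1 (voom), other scaling, filter and samples, a replicate block and each library left out. Replicate pairs were separate libraries: chi-square over genes, per degree of freedom, was at least 3.18 in 45 pairs. Deviations of same-numbered libraries correlated over 0.1 in 229 of 315 pairs (median 0.149), and in every pair of 11 of the 30 contrasts, including HF in AAVS1. The block is therefore given beside results there where it changes a call. Values with the block are also given for contrasts outside these 11. They are MCL1 in azaC against HF in GCN2 KO and TNFRSF10B with HF in RNF25 KO and GCN2 KO. HRK in the azaC average of the lines with GCN2 against those without it is another. Positions are from GENCODE (GRCh38). Named genes are the 9 members, upstream factors and called pathway genes with the smallest adjusted p, and the 3 genes most correlated with each member called with a drug. The members and lists were chosen with earlier results of these data known.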

Additional observations from a re-analysis of the deposited data

Results flagged for a closer look

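5 results differed between genotypes under the same drug by a test of the difference itself. The response of HRK to HF was lower in GCN2 KO than in AAVS1 (log2 difference -3.30, adjusted p = 0.0114 by edgeR), and that of MCL1 was higher (1.25, adjusted p = 0.00121 by edgeR). Against GCN2 KO, the mean HF response of AAVS1 and RNF25 KO differed by 2.84 for HRK (adjusted p = 0.00768 by edgeR) and by -1.09 for MCL1 (adjusted p = 7.42e-04 by edgeR), and both pairs of results use the same GCN2 KO and AAVS1 libraries. The azaC response of PMAIP1 averaged over the 4 lines that carry GCN2 exceeded that of GCN2 KO and RNF25 GCN2 DKO by 1.38 (adjusted p = 2.28e-04 by edgeR). HRK in GCN2 KO against AAVS1 did not pass without GCN2 KO untreated replicate 1, AAVS1 HF replicate 1 or GCN2 KO HF replicate 3 (adjusted p = 0.209, 0.0796 and 0.0601), by limma-voom (0.145) or with only the groups compared in the fit. HRK in the mean HF response did not pass without GCN2 KO untreated replicate 1 or GCN2 KO HF replicate 3 (adjusted p = 0.233 and 0.0598) or by limma-voom (0.0667). HRK held 3 to 14 reads in each GCN2 KO library and 3, 5 and 4 reads in the untreated AAVS1 libraries, so its values in both have little precision.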

How the results depend on the processing

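Of 270 member tests (9 genes in 30 comparisons), 22 passed, and 15 of these passed with each library of the comparison left out in turn. Of the 22, all 22 passed by DESeq2, with the replicate block and without both libraries that stand apart, 20 by limma-voom and 20 with only the groups compared in the fit. None of the 22 changed direction under these alternatives. Among member values that did not pass, leaving out 1 library moved TNFRSF10B with HF in AAVS1 between -0.20 and 0.91 and HRK with HF in GCN2 KO between -0.65 and 0.33. The untreated comparisons went from 1 call to 3 without both libraries that stand apart, and the differences between genotypes from 2 to 1 by limma-voom and from 2 to 1 with only the groups compared. The comparisons of azaC with HF went from 2 calls to 4 with the replicate block. Leaving out 1 library gave 1 to 3 calls for azaC against HF, 1 to 2 for the differences between genotypes and 1 to 3 for the untreated comparisons. The cause was not tested. The replicate block, which changed calls only upwards, gave HRK in azaC against HF in AAVS1 a log2 difference of -1.26 (adjusted p = 0.0448), BBC3 with HF in AAVS1 1.99 (0.0410), MCL1 with HF in AAVS1 -0.47 (0.0494), MCL1 in azaC against HF in GCN2 KO -0.56 (0.0130) and HRK in the 4-line azaC average against the lines without GCN2 1.57 (0.0372). Among all genes it raised the calls for HF in AAVS1 from 172 to 375. PMAIP1 with azaC in AAVS1 had an adjusted p of 1.00 with only those 6 libraries in the fit. BBC3, BAX and HRK had medians of 9, 11 and 14 reads per library, and the part of depth in their results was not tested.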
